A study of Mus musculus with 26 samples.

Results

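Nuclear genes of respiratory complexes I, II, III and V were followed in regenerating mouse muscle and in differentiating C2C12 myoblasts. Members were the protein-coding genes whose symbol began with Nduf, Uqcr or Atp5, together with Sdha, Sdhb, Sdhc and Sdhd. The rule found 74 of 53465 genes in the muscle table and 77 of 55487 genes in the C2C12 table. In muscle they were 36 complex I subunits, 4 of complex II, 8 of complex III, 15 of complex V, 8 Ndufaf assembly factors and 3 other genes. In C2C12 cells they were 37, 4, 8 and 18 subunits, the same 8 assembly factors and 2 other genes. The muscle libraries came from the tibialis anterior of six-week-old C57BL/6J mice, male in the methods, before cardiotoxin (day 0) and 1, 3, 5 and 10 days after its injection, with 2 libraries a day. Cardiotoxin is a snake venom toxin that destroys myofibers and leaves satellite cells to rebuild them. The methods name saline as the control injection, and whether the day 0 muscles received it is not given in the sources used here. The C2C12 libraries were control cells (Ctrl) and Cas9M3 cells, each in growth medium (GM) and on day 3 of differentiation in low-serum medium (D3), again with 2 libraries a group. C2C12 is an established mouse myoblast line that fuses into myotubes when serum is withdrawn. Cas9M3 cells were puromycin-selected lentiviral cells in which the hUbC promoter drove dCas9-KRAB, a nuclease-dead Cas9 joined to a repressor domain, and hU6 drove guides to the Mettl3 promoter. The deposited design text calls them knockout derivatives, and the guide or vector carried by the Ctrl cells is not given in the sources used here. Mettl3, the catalytic subunit of the m6A writer, measured 4.68 to 5.65 FPKM in the Ctrl libraries and 0.0805 to 0.331 FPKM in the Cas9M3 libraries.

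Oxidative phosphorylation passes electrons from NADH through complex I, and from succinate through complex II, to ubiquinone. Complex III hands them on to cytochrome c, complex IV (cytochrome oxidase, not covered here) passes them to oxygen, and complex V, the ATP synthase, uses the resulting proton gradient to make ATP. All subunits of complex II are encoded in the nucleus, while complexes I, III and V also contain subunits encoded by mitochondrial DNA. Skeletal myofibers are rich in mitochondria, and assembly factors such as the Ndufaf proteins build complex I without staying in it.

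FPKM here divides a gene's reads by its exon length and by a scaling factor of the library, so levels can be set side by side between genes. The factor did not follow the reads on genes. A read on 1 kb gave 0.0507 FPKM in day 3 replicate 1 and 0.0803 FPKM in day 0 replicate 1, which had more reads on genes. The sizes of changes between libraries thus rest on this scaling. Reads assigned to genes, recovered from the steps of the FPKM values, numbered 14.2 to 18.8 M per muscle library and 14.2 to 29.6 M per C2C12 library, where M stands for megareads. Nothing in the labels says that the 2 libraries of a group came from separate animals or cultures, so p-values measure only the spread between these samples. Xist, the RNA of the inactive X chromosome, measured 5.77 to 10.0 FPKM in both day 0, both day 10 and one day 3 library, and at most 0.152 FPKM in the other 5. Xist thus goes against the described sex in those libraries, and apart from day 3 this difference cannot be told apart from the day. A term for Xist beside the day means is therefore estimated from the 2 day 3 libraries alone, so calls lost with it are no test of sex. Ribosomal RNA loci took 28.7% of the reads of Ctrl GM replicate 2 against 0.412 to 0.536% in the 4 replicate 1 libraries of C2C12 and 8.21 to 11.3% in the other replicate 2 libraries. In the muscle libraries they took 7.14 to 9.67%.

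Promoters of the members were read from RefSeq on GRCm38.p6, from 250 bases before to 50 bases after the annotated start, using the first listed start of a gene. A window was found for 66 of 78 members over both tables. Each was searched on both strands for 4 motifs of factors linked to mitochondrial genes, with no overlap between the letters of different motifs required. The NRF1 letters GCGCATGCG stood in 9 of 66 windows (13.6%) against 2.41% of 17492 windows of protein-coding genes. The YY1 letters AAGATGGC stood in 10 (15.2%) against 3.22%, the ERR family letters AAGGTCA in 8 (12.1%) against 4.08%, and the ETS family letters CCGGAAGT, bound by GABPA, in 4 (6.06%) against 5.29%, which is near that background. At least 1 of the 4 motifs stood in 28 members (42.4%) and in 14.1% of the protein-coding windows. Of the 10 YY1 matches, 9 lay on the gene's own strand between 10 and 45 bases after the start. Complex I subunits made up 7 of the 10 matches and 33 of the 66 windows. The windows of 30 bases shown here belong to genes whose levels are described next, with the motif in capitals, read 5′ to 3′ on the gene's strand.
Ndufs7, YY1, chr10:80249462-80249491, plus strand: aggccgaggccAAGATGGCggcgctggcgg
Ndufa3, YY1, chr7:3617384-3617413, plus strand: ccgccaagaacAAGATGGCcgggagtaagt
Atp5f1, YY1, chr3:105959248-105959277, minus strand: atgtgcgagcgGCCATCTTgctcctgcccc
Uqcrc1, NRF1, chr9:108936668-108936697, plus strand: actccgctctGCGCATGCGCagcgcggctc
Atp5g2, NRF1, chr15:102671070-102671099, minus strand: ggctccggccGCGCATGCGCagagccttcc
Atp5k, NRF1, chr5:108434430-108434459, minus strand: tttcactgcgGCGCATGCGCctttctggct
Ndufaf5, NRF1, chr2:140170652-140170681, plus strand: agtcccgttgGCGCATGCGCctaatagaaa
Atp5g3, ERR family, chr2:73911361-73911390, minus strand: gttgttacaaagTGACCTTgagcgtcttcc
Sdhd, ERR family, chr9:50603800-50603829, minus strand: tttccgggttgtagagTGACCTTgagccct
Uqcrh, ETS family, chr4:116075063-116075092, minus strand: gagtatgccgcACTTCCGGccaggtcgccg
The GCGCATGCGC runs hold the NRF1 letters on both strands, and the Atp5f1, Atp5g3, Sdhd and Uqcrh matches lay on the strand opposite to the gene. A match is a run of letters and not a measured binding site.

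On day 3 after cardiotoxin, all 63 subunits of complexes I, II, III and V fell against day 0. The median subunit stood at 30.9% of its day 0 mean, from 22.8% for Ndufs7 to 62.9% for Atp5g2. The median log2 fold change was -1.69 over the 63 subunits and 0.01 over all 16753 genes tested. Calls rest on limma with a Benjamini-Hochberg adjusted p of at most 0.05 over all genes, and 24.3% of all genes were called lower in this comparison. By complex the median log2 fold change was -1.70 for complex I, -1.77 for complex II, -1.76 for complex III and -1.53 for complex V. The count was 62 under quantile normalization or without day 0 replicate 1, and 61 when a log2 fold change of at least 1 was also required. The day 0 libraries also enter the comparisons of days 1, 5 and 10, and the day 3 libraries enter several others.

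**Figure D1:**
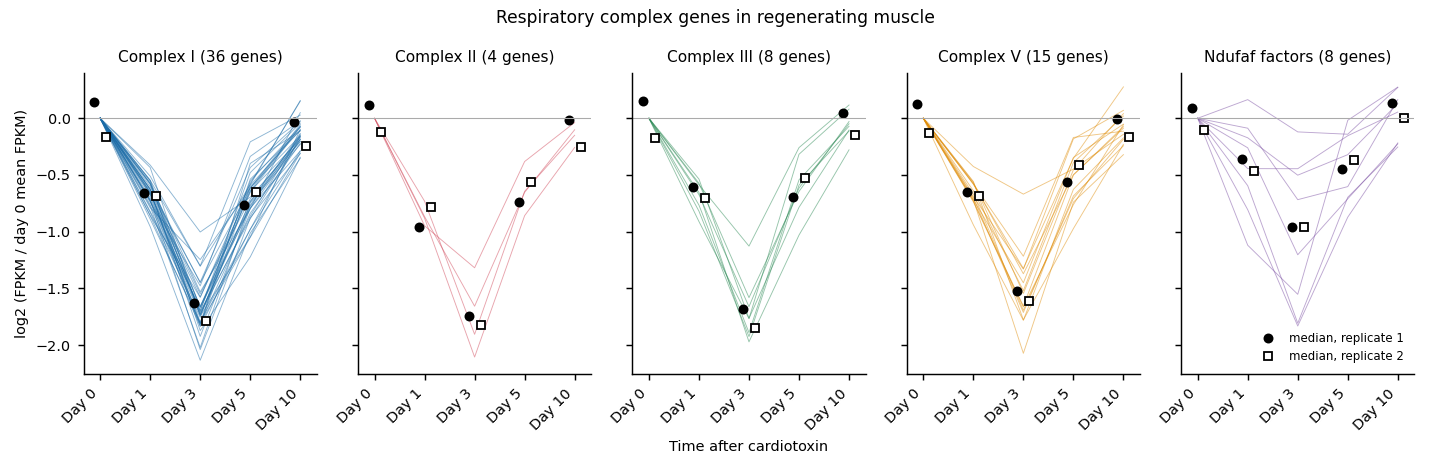
Log2 of FPKM relative to the day 0 mean of the same gene (y axis) by day after cardiotoxin (x axis), in 1 panel each for complexes I, II, III and V and the Ndufaf factors. Thin lines join the group means of single genes, and filled circles and open squares are the median over genes in replicates 1 and 2, which are lowest on day 3 in every panel.

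Fewer myofibers and less RNA per myofiber cannot be told apart in bulk muscle. Markers of mature fibers fell on day 3 as well. All 8 of 8 fiber genes (among them Ckm, Acta1 and Myh4) were called lower, against 24.3% of all genes, with a median log2 fold change of -2.21. Subunit medians were -0.66 on day 1 and -0.64 on day 5. Of the 8 fiber genes, 0 were called on day 1 (median -0.44) and 1 on day 5 (median -0.82). Their summed level was 55737 to 60703 FPKM on day 0, 12408 to 16164 FPKM on day 3, 39449 to 39830 FPKM on day 5 and 52691 to 68015 FPKM on day 10. Myeloid markers went the other way, with 6 of 7 higher on day 3 and a summed level, over 8 entries for these 7 symbols, of 35.6 to 74.8 FPKM on day 0 against 1215 to 1218 FPKM on day 3. Myog, Myh3 and the 3 other genes of regenerating muscle cells all rose, from a summed 19.1 to 43.2 FPKM on day 0 to 934 to 1425 FPKM on day 3. Both proliferation markers (Mki67 and Top2a) and both fibroblast markers (Col1a1 and Pdgfra) rose, with median log2 fold changes of 3.41 and 2.57. Both endothelial markers missed the threshold, with a median log2 fold change of -0.61. The part of cell composition in the subunits' fall was not tested.

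Among the core subunits of complex I, which carry the electrons from NADH to ubiquinone, the fall on day 3 was largest for Ndufs7. Ndufs7 holds the last iron-sulfur cluster before ubiquinone and lies on chromosome 10 from 80249121 to 80256794 (GRCm38, plus strand). It measured 210 and 156 FPKM on day 0, 89.5 and 99.6 on day 1, 44.5 and 39.1 on day 3, 89.1 and 92.6 on day 5, then 162 and 125 on day 10. The day 3 libraries lay below those of every other day, with a log2 fold change of -2.12 ± 0.19 (SE) against day 0 (limma adjusted p = 0.000331). Ndufv1, the subunit that binds NADH and the flavin, measured 240 and 207 FPKM on day 0 and 59.1 and 51.1 FPKM on day 3, a log2 fold change of -2.02 ± 0.15 (adjusted p = 0.000269). Ndufs1, the largest iron-sulfur subunit, went from 70.2 and 57.6 FPKM to 19.2 and 17.4 FPKM, a log2 fold change of -1.79 ± 0.19 (adjusted p = 0.000459). The core subunits Ndufs3, Ndufs8 and Ndufv2 fell as well. The smallest fall of any complex I subunit was that of the accessory subunit Ndufa7, singled out after its values were seen. It measured 93.5 and 64.6 FPKM on day 0 and 40.2 and 38.7 FPKM on day 3, a log2 fold change of -0.98 ± 0.18 (adjusted p = 0.00397). Its level on day 3 was 49.9% of the day 0 mean.

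All 4 complex II subunits fell on day 3. Sdhb, the iron-sulfur subunit, measured 264 and 204 FPKM on day 0 and 57.8 and 51.1 FPKM on day 3. Its log2 fold change was -2.09 ± 0.20 (SE, limma adjusted p = 0.000385). Sdha, the flavoprotein that oxidizes succinate, measured 316 and 272 FPKM on day 0, 158 and 197 on day 1, 82.3 and 75.02 on day 3, 171 and 206 on day 5, then 290 and 240 on day 10. The membrane anchors are Sdhc and Sdhd. Sdhc measured 132 and 110 FPKM on day 0, 62.8 and 69.6 on day 1, then 38.7 and 37.9 on day 3. Sdhd measured 297 and 292 FPKM on day 0, 150 and 156 on day 1, 121 and 116 on day 3, 208 and 245 on day 5, then 291 and 283 on day 10. Sdhd had a day 1 log2 fold change of -0.95 ± 0.13 (adjusted p = 0.0204), and its change of -0.37 ± 0.13 between days 1 and 3 missed the threshold (adjusted p = 0.066). Sdhd on day 3 was at 40.1% of day 0, the highest share of the 4 subunits.

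The 8 complex III subunits also fell on day 3. Uqcrfs1, the Rieske iron-sulfur protein that takes electrons from ubiquinol, measured 523 and 456 FPKM on day 0 and 135 and 123 FPKM on day 3. The log2 fold change was -1.92 ± 0.15 (SE, limma adjusted p = 0.000276). Uqcrc1, a core protein on the matrix side, measured 235 and 215 FPKM on day 0 and 61.5 and 60.0 FPKM on day 3. Uqcrc2, the second core protein, measured 252 and 246 FPKM on day 0, 126 and 139 on day 1, 76.3 and 70.3 on day 3, 173 and 227 on day 5, then 267 and 260 on day 10. Of its exon bases 19.7% overlap another gene, and the strand setting of the counting is not given in the sources used here. The smallest fall in the complex was that of Uqcrh, the hinge protein, singled out after its values were seen. Uqcrh went from 313 and 253 FPKM to 132 and 127 FPKM, a log2 fold change of -1.12 ± 0.16 (adjusted p = 0.00128).

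Complex V had the smallest median fall and the widest range. The catalytic F1 head of the enzyme is built from Atp5a1 and Atp5b around the shaft of Atp5c1. Atp5a1 had the highest FPKM of all members, with 1194 and 1074 on day 0 and 342 and 318 on day 3. Atp5b measured 978 and 907 FPKM on day 0, 536 and 601 on day 1, 290 and 309 on day 3, 591 and 742 on day 5, then 953 and 839 on day 10. Its log2 fold change on day 3 was -1.66 ± 0.17 (SE, limma adjusted p = 0.000459). Atp5c1 went from 436 and 366 FPKM on day 0 to 127 and 117 FPKM on day 3. Both groups were separated for each of these genes.

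The membrane ring of ATP synthase is made of subunit c, which 3 nuclear genes encode with different targeting sequences and the same mature protein. Atp5g1 measured 151 and 135 FPKM on day 0, 89.3 and 84.2 on day 1, 36.8 and 31.0 on day 3, 79.8 and 91.0 on day 5, then 119 and 110 on day 10. Atp5g2 measured 135 and 120 FPKM on day 0, 107 and 83.4 on day 1, 79.3 and 81.1 on day 3, 91.4 and 95.5 on day 5, then 117 and 114 on day 10. Atp5g3 measured 335 and 313 FPKM on day 0, 217 and 184 on day 1, 131 and 127 on day 3, 253 and 318 on day 5, then 345 and 335 on day 10. Atp5g1 had the largest fall of complex V and Atp5g2 the smallest fall of all 63 subunits. On day 3 the log2 fold changes were -2.07 ± 0.14 for Atp5g1 (SE, limma adjusted p = 0.000263), -1.33 ± 0.16 for Atp5g3 (adjusted p = 0.000648) and -0.67 ± 0.15 for Atp5g2 (adjusted p = 0.00795). Under quantile normalization the change of Atp5g2 was -0.14 (adjusted p = 0.359), so its call depended on the scaling, and without day 0 replicate 1 it was -0.57 (adjusted p = 0.0552).

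As a share of the summed FPKM of the 3 genes, Atp5g1 went from 24.0% ± 0.352 (SD, n = 2) on day 0 to 13.9% ± 1.33 on day 3. Atp5g2 went from 21.4% ± 0.539 to 33.0% ± 1.31, and Atp5g3 stood at 54.6% ± 0.891 and 53.0% ± 0.0247. On day 10 the shares were 20.03% for Atp5g1, 20.3% for Atp5g2 and 59.7% for Atp5g3. The day 3 shares of Atp5g1 lay below, and those of Atp5g2 above, those of every other day. With 2 libraries a group, an exact two-sided permutation test cannot go below p = 0.333, so the shares were not tested. In C2C12 cells Atp5g1 held 5.17 to 7.93% of the sum in all 8 libraries and Atp5g2 43.0 to 56.4%, so the Atp5g1 share there lay below every muscle library. The 2 tables were normalized separately, but a share within a library does not depend on that.

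**Figure D2:**
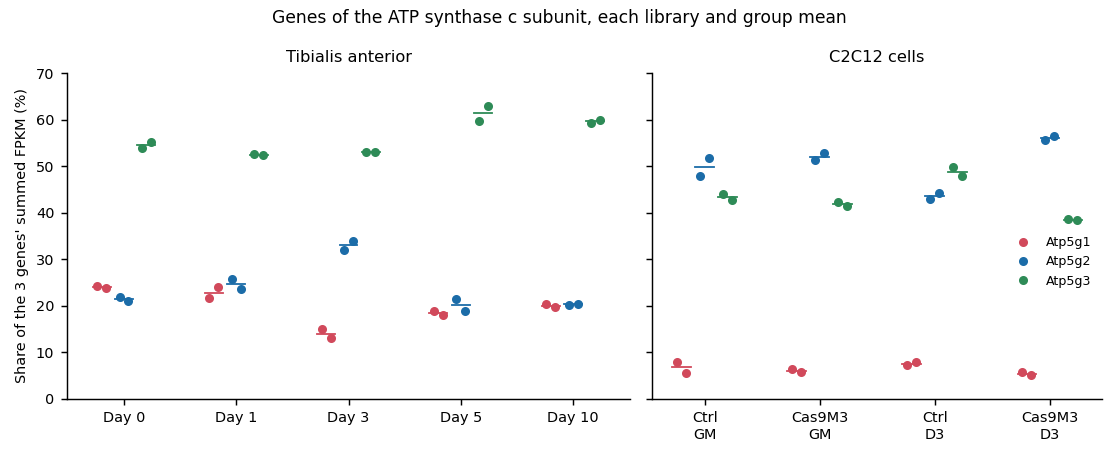
Share of each of Atp5g1, Atp5g2 and Atp5g3 in their summed FPKM (y axis, percent) by day in muscle and by group in C2C12 cells (x axis). Points are single libraries and short lines group means, and on day 3 in muscle Atp5g1 is at its lowest (13.9%) and Atp5g2 at its highest (33.0%).

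On day 3, 6 of 8 Ndufaf assembly factors of complex I were called lower, against 24.3% of all genes. The median factor stood at 52.1% of day 0. Ndufaf5, which modifies Ndufs7 during assembly, fell most. It measured 20.9 and 17.2 FPKM on day 0, 10.97 and 10.8 on day 1, 5.92 and 4.78 on day 3, 9.95 and 10.9 on day 5, then 18.0 and 14.7 on day 10. Its log2 fold change on day 3 was -1.81 ± 0.17 (SE, limma adjusted p = 0.000358). Ndufaf6 measured 17.8 and 11.7 FPKM on day 0 and 4.51 and 3.92 FPKM on day 3. Ndufaf1, an early assembly chaperone, measured 42.1 and 41.4 FPKM on day 0, 17.4 and 20.99 on day 1, 14.7 and 13.8 on day 3, 34.7 and 47.8 on day 5, then 51.6 and 49.4 on day 10. It fell by 1.55 ± 0.17 (log2) on day 3 (adjusted p = 0.00052). Its change on day 1 was -1.12 ± 0.17 (adjusted p = 0.0227), a call lost without CTX day 1 replicate 1, without either day 0 or either day 3 library, with only the compared groups in the fit and with a term for Xist (limma adjusted p = 0.0531 to 0.396). On day 10 both of its libraries lay above both of day 0, without passing the test.

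The remaining factors changed less. Ndufaf4, which works with Ndufaf3 on the ubiquinone module, measured 14.2 and 12.2 FPKM on day 0 and 5.80 and 5.66 FPKM on day 3. Ndufaf8, the partner of Ndufaf5, measured 20.98 and 15.7 FPKM on day 0 and 10.995 and 11.3 FPKM on day 3. Ndufaf3 measured 8.76 and 8.83 FPKM on day 0 and 6.14 and 6.78 FPKM on day 3. Its log2 fold change of -0.44 ± 0.13 (SE) passed narrowly (limma adjusted p = 0.0289) and missed under median-ratio scaling, at -0.31 (adjusted p = 0.0882), and without either day 3 or either day 0 library (adjusted p = 0.0628 to 0.136). Ndufaf7, a mitochondrial methyltransferase, measured 9.03 and 7.9997 FPKM on day 0 and 6.42 and 5.602 FPKM on day 3, a change of -0.50 ± 0.21 (adjusted p = 0.0865). Ndufaf2, a late assembly chaperone, measured 2.64 and 2.44 FPKM on day 0 and 2.48 and 2.19 FPKM on day 3. For Ndufaf2, 65.6% of the exon bases overlap other genes. A further list held 21 assembly factors outside the symbol rule, among them Sdhaf1 to Sdhaf4, Bcs1l and Atpaf1. Of these, 21 of 21 were lower on day 3, against 24.3% of all genes, with a median log2 fold change of -1.003.

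**Figure D3:**
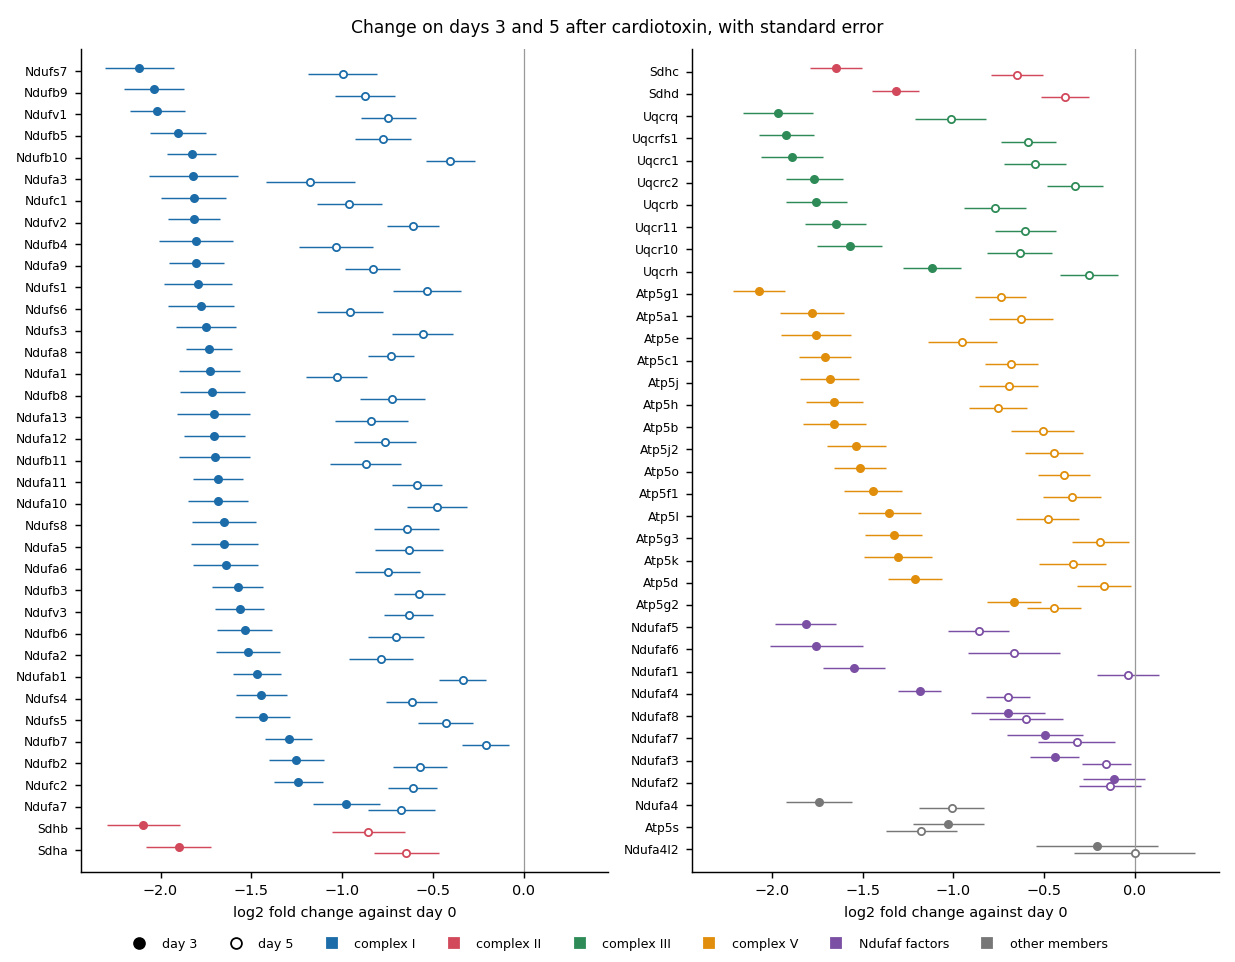
Log2 fold change against day 0 (x axis) of 73 members (y axis), with day 3 as filled and day 5 as open circles and bars of 1 standard error from limma. On day 3 the subunits lie between -2.12 and -0.67 and the 8 Ndufaf factors between -1.81 and -0.12.

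Of the 3 other members, Ndufa4 fell with the subunits. Its product was first placed in complex I and is now counted with complex IV. Ndufa4 measured 381 and 298 FPKM on day 0 and 110 and 91.9 FPKM on day 3, a log2 fold change of -1.74 ± 0.18 (SE, limma adjusted p = 0.000449). Ndufa4l2, its paralog known from hypoxic cells, measured 4.10 to 8.74 FPKM over all 10 libraries. Its day 3 libraries (6.25 and 6.91) lay below those of day 0 (7.62 and 7.59), while the ranges of days 1, 5 and 10 overlapped or enclosed those of day 0, and no comparison passed the test. Atp5s, a factor that couples the membrane part of ATP synthase, measured 6.93 and 5.84 FPKM on day 0, 3.53 and 2.67 on day 3, 2.59 and 2.93 on day 5, then 5.93 and 5.25 on day 10. The day 5 and day 3 values of Atp5s overlapped. Relative to day 0, the log2 change of Atp5s on day 5 was -1.18 ± 0.20 (adjusted p = 0.0127). The call was lost without either day 5 library or without day 0 replicate 1 (adjusted p = 0.0571 to 0.0912), and with a term for Xist (adjusted p = 0.151).

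On day 1, before the low point, 27 of 63 subunits were already called lower, against 2.47% of all genes. The called subunits were 14 of complex I, 3 of complex II, 3 of complex III and 7 of complex V. Both libraries lay below both day 0 libraries for 63 of 63 subunits, against 26.9% of all genes. The median subunit stood at 62.8% of day 0, from 51.6% (Ndufs7) to 75.1% (Ndufa7), and the median log2 fold change was -0.66. Ndufs7 changed by -0.94 ± 0.19 (SE, limma adjusted p = 0.0373). Of the assembly factors 2 of 8 were lower. Of 27 calls 0 were left when only the groups compared entered the fit, when libraries that express Xist had a term of their own, or when day 1 replicate 1, day 0 replicate 1, day 0 replicate 2 or day 3 replicate 1 was left out. The count was 1 without day 3 replicate 2, 3 without either day 5 library and 16 without day 1 replicate 2.

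From day 1 to day 3, 61 of 63 subunits were called lower, against 16.6% of all genes, with a median log2 fold change of -0.99. The exceptions were Sdhd and Atp5g2. The largest fall was that of Atp5g1, with a log2 fold change of -1.36 ± 0.14 (SE, limma adjusted p = 0.00228). Of the Ndufaf factors 3 of 8 fell in this interval. With a term for Xist the count was 30, and without day 3 replicate 2 it was 32.

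From day 3 to day 5, 60 of 63 subunits rose, against 7.23% of all genes called higher, with a median log2 fold change of 1.00. They were 34 of complex I, all 4 of complex II, all 8 of complex III and 14 of complex V. Uqcrc2 rose most, with a log2 fold change of 1.44 ± 0.16 (SE, limma adjusted p = 0.00533). The exceptions were Ndufa3, Ndufa7 and Atp5g2. Ndufa3, an accessory subunit of complex I, changed by 0.64 ± 0.24 and missed the threshold (adjusted p = 0.128). Among the Ndufaf factors 4 of 8 rose, and Ndufaf1 rose by 1.51 ± 0.17 (adjusted p = 0.0059), which brought it to 98.8% of its day 0 mean. The call of Ndufaf1 was lost without day 3 replicate 2, without day 5 replicate 2 or with a term for Xist (adjusted p = 0.0532 to 0.058). The count of 60 was 0 without day 3 replicate 2, without day 5 replicate 2 or with a term for Xist, 30 without day 3 replicate 1 and 21 without day 5 replicate 1.

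On day 5 the subunits had not reached their day 0 levels. Of 63 subunits 44 were still lower than on day 0, against 12.5% of all genes, and the median subunit stood at 64.0% of day 0. They were 30 of complex I, 3 of complex II, 5 of complex III and 6 of complex V. The median was 60.6% for complex I and 70.8% for complex V. Ndufa3 was furthest below, at 187 and 109 FPKM on day 0 and 68.9 and 58.0 FPKM on day 5, a log2 fold change of -1.17 ± 0.24 (SE, limma adjusted p = 0.0182). Its 2 day 0 libraries differed from each other more than its 2 day 5 libraries. Atp5d, the delta subunit of the central stalk, was nearest to day 0, at 263 and 233 FPKM on day 0 and 201 and 240 FPKM on day 5. The count of 44 was 0 without either day 5 library, without day 0 replicate 1 or with a term for Xist, and 26 in a fit of these groups alone. Under quantile normalization it was 11.

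By day 10 no subunit differed from day 0 by limma, at an adjusted or at an unadjusted p of 0.05 (0 of 63 in both). Of all genes 1 passed the adjusted threshold (0.00597%) and 1697 the unadjusted one. The median subunit stood at 92.5% of day 0 and the median log2 fold change was -0.11. Ndufs7 was again the lowest, with a log2 fold change of -0.35 ± 0.19 (SE, adjusted p = 0.565). Atp5k, subunit e of the ATP synthase membrane part, was the highest, at 310 and 226 FPKM on day 0 and 345 and 305 FPKM on day 10, a change of 0.29 ± 0.19 (adjusted p = 0.604). Against day 3, all 63 subunits were higher on day 10, compared with 19.1% of all genes, with a median log2 fold change of 1.58. Uqcrc2 again rose most, by 1.85 ± 0.16 (adjusted p = 0.000602). The Ndufaf factors were higher in 7 of 8. Among subunits, the 38 without any exon overlap with another gene gave 38 calls in this comparison and 38 on day 3 against day 0.

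Partners of these complexes outside the symbol rule were taken from fixed lists. Cyc1, the cytochrome c1 subunit of complex III that the symbol rule does not reach, measured 539 and 525 FPKM on day 0, 174 and 171 on day 3, then 576 and 508 on day 10. Cycs, cytochrome c itself, measured 120 and 115 FPKM on day 0 and 38.3 and 34.3 FPKM on day 3, and both genes fell. The 10 mitochondrially encoded subunits of complexes I, III and V fell in 10 of 10 cases on day 3, with a median log2 fold change of -2.68. On day 10 their median was still -0.87 against day 0, with 0 of 10 called. Of 14 regulators of mitochondrial genes, 8 were lower on day 3 and none higher, with a median log2 fold change of -0.87. In that comparison 24.3% of all genes were called lower. For the mitochondrial list, summed FPKM was 81570 and 50067 in the 2 day 0 libraries and 42190 and 31290 in the day 10 libraries.

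In C2C12 cells 75 of 77 members passed the filter on low values. Ndufa4l2 measured 0.0549 to 0.373 FPKM, and a second gene entry named Atp5o was at 0 in all 8 libraries. The highest member in Ctrl GM replicate 1 was Atp5b at 310 FPKM, ahead of Atp5a1 at 224 FPKM. Libraries with the same replicate number deviated together in all groups, so the numbers were treated as pairing the cell libraries. Members were higher in replicate 2 than in replicate 1 in every group. The median log2 difference was 1.25 in Ctrl GM (72 of 75 higher), 0.31 in Cas9M3 GM, 0.45 in Ctrl D3 and 0.35 in Cas9M3 D3. Shorter members differed more: in Ctrl GM the median was 1.76 for 5 members between 500 and 700 exon bases and 0.91 for 31 members over 2000 bases. Protein-coding genes as a whole showed a length trend there too, with medians of 1.37 between 500 and 700 bases and -0.15 over 2000 bases. Ctrl GM replicate 2 is the library with the large share of ribosomal RNA, whose part in this difference was not tested.

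**Figure D4:**
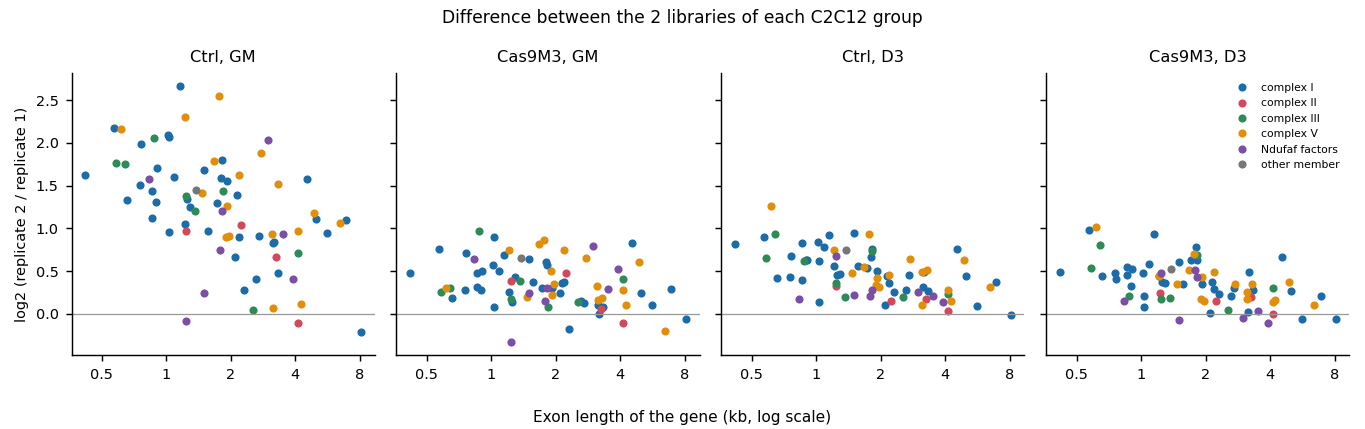
Log2 ratio of replicate 2 to replicate 1 (y axis) against exon length in kilobases (x axis, log scale) for the members in each of the 4 C2C12 groups, coloured by complex. Points lie highest in Ctrl GM, where the median is 1.25 and short genes reach above 2.

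No member passed the test between any of the C2C12 groups in the fit of all 4 groups. Against this stood 1.14% of all genes for Ctrl D3 against Ctrl GM, 0.0289% for Cas9M3 D3 against Cas9M3 GM, 0% for Cas9M3 GM against Ctrl GM, 1.98% for Cas9M3 D3 against Ctrl D3 and 0% for the difference between the last 2 effects. At an unadjusted p of 0.05 limma gave 0, 1, 1, 3 and 0 of 66 subunits in the same order, beside 2520, 1748, 1244, 2429 and 1198 of 13824 genes. Every result that uses the Ctrl GM group rests on libraries that differ by more than 2-fold for most members.

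During differentiation of Ctrl cells the median subunit changed by -0.56 (log2), and both D3 libraries lay below both GM libraries for 9 of 66 subunits, against 22.4% of all genes. Within replicate 1 the median was -0.14, and within replicate 2 it was -0.98. Ndufb7, an accessory complex I subunit, had the lowest value at -1.02 ± 0.59 (SE, limma adjusted p = 0.385), with 20.1 and 60.4 FPKM in GM and 13.2 and 22.3 FPKM on D3. Ndufs1 had the highest, at 0.30 ± 0.16 (adjusted p = 0.35), with 15.02 and 12.9 FPKM in GM and 17.2 and 17.0 FPKM on D3. Without Ctrl GM replicate 1 the fit called 36 subunits lower, against 13.9% of all genes, with a median of -1.22. The only Ctrl GM library in that fit is the one rich in ribosomal RNA, and it was assumed to vary like the other groups. Without Ctrl GM replicate 2 the median turned to 0.11 in a fit that does not pair the replicate numbers. With that library left out and the replicate number as a block, the median was -0.09. Without that library the sign thus rested on the pairing. In the same cells Myog, a muscle differentiation factor, measured 11.1 and 2.70 FPKM in GM and 89.1 and 83.3 FPKM on D3 without passing the test.

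During differentiation of Cas9M3 cells the median subunit changed by -0.22, with -0.26 within replicate 1 and -0.20 within replicate 2. Fits with 1 library left out, which do not pair the replicate numbers, gave -0.04 without Cas9M3 D3 replicate 1 and -0.07 without GM replicate 2. The median was -0.39 without GM replicate 1 and -0.41 without D3 replicate 2. Its size in these unpaired fits rested on single libraries. Both D3 libraries lay below both GM libraries for 23 of 66 subunits, against 24.1% of all genes. Complex V had the lowest median of the 4 complexes, at -0.41. Atp5d measured 91.9 and 107 FPKM in GM and 52.6 and 70.8 FPKM on D3, a change of -0.70 ± 0.43 (SE, limma adjusted p = 0.618). Atp5b measured 291 and 312 FPKM in GM and 178 and 199 FPKM on D3, a change of -0.68 ± 0.21 (adjusted p = 0.26). Ndufb2 was the highest, at 1.18 and 1.27 FPKM in GM and 1.56 and 1.49 FPKM on D3, a change of 0.30 ± 0.34 (adjusted p = 0.84).

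In growth medium the knockdown and control libraries could be compared only loosely. Both Cas9M3 libraries lay below both Ctrl libraries for 11 of 66 subunits, against 13.8% of all genes. The median subunit changed by -0.53, made of -0.08 within replicate 1 and -0.99 within replicate 2, and it was -1.18 without Ctrl GM replicate 1 and turned to 0.10 without Ctrl GM replicate 2. Ndufb2 had the lowest value, at -0.92 ± 0.34 (SE, limma adjusted p = 0.522), with 1.70 and 3.39 FPKM in Ctrl and 1.18 and 1.27 FPKM in Cas9M3. Atp5a1 was the highest, with 224 and 236 FPKM in Ctrl and 226 and 253 FPKM in Cas9M3. Both Cas9M3 libraries were above both Ctrl libraries for 2 of 8 assembly factors, against 15.6% of all genes. Ndufaf4 measured 3.90 and 5.23 FPKM in Ctrl and 6.63 and 9.55 FPKM in Cas9M3, a change of 0.80 ± 0.25 (adjusted p = 0.462). Ndufaf1 measured 17.2 and 20.49 FPKM in Ctrl and 23.2 and 27.5 FPKM in Cas9M3, a change of 0.43 ± 0.18 (adjusted p = 0.57).

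The knockdown fold changes on day 3 of differentiation do not use Ctrl GM replicate 2. That library does enter the spread shared by all 4 groups, and with it the standard errors and adjusted p of this comparison. The subunit median was below 0 within both replicate numbers. The median subunit changed by -0.22, with -0.19 within replicate 1 and -0.27 within replicate 2, against -0.05 over all genes. Fits with 1 library left out do not pair the replicate numbers. They gave 0.01 without Ctrl D3 replicate 2 and -0.07 without Cas9M3 D3 replicate 1. The median was -0.41 without Cas9M3 D3 replicate 2 and -0.47 without Ctrl D3 replicate 1. Its size in these unpaired fits rested on single libraries. Of 66 subunits 49 were lower within both replicate numbers (74.2%), compared with 43.6% of all genes. Both Cas9M3 libraries lay below both Ctrl libraries for 20 of 66 subunits, which is near the 34.2% of all genes. This count ignores the pairing. Between replicates 1 and 2 members of all lengths differed by a median of 0.45 in Ctrl D3 and 0.35 in Cas9M3 D3. Members over 2000 bases differed by 0.28 and 0.20, and all genes over 2000 bases by -0.07 and -0.02. Such shares are thus not like for like in C2C12 comparisons.

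Atp5b, the catalytic beta subunit of ATP synthase, measured 286 and 317 FPKM in Ctrl D3 and 178 and 199 FPKM in Cas9M3 D3. The 2 groups did not overlap, and the log2 change was -0.68 ± 0.21 (SE, limma adjusted p = 0.165). Atp5pb, subunit b of the stator stalk and named Atp5f1 in the muscle table, measured 54.1 and 65.8 FPKM in Ctrl and 34.9 and 38.5 FPKM in Cas9M3, a change of -0.70 ± 0.33 (adjusted p = 0.358). Sdha measured 56.2 and 57.4 FPKM in Ctrl and 44.6 and 44.3 FPKM in Cas9M3. Calls appeared in other fits. With only these 2 groups in the fit, Ndufs1, Atp5pb, Ndufa9 and Atp5b were called lower (adjusted p = 0.0308 to 0.0472), against 10.2% of 13079 genes. With the replicate number as a block and Ctrl GM replicate 2 left out, Atp5pb, Atp5b, Atp5g1 and Ndufv2 were called lower (adjusted p = 0.0311 to 0.0498), against 5.3% of all genes. The block alone called no subunit.

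The c subunit genes also moved apart here, with a larger fall in the Atp5g3 share than in muscle on day 3. Atp5g1 measured 11.9 and 18.4 FPKM in Ctrl D3 and 8.10 and 10.48 FPKM in Cas9M3 D3. Atp5g3 measured 82.0 and 112 FPKM in Ctrl and 55.5 and 77.9 FPKM in Cas9M3, while Atp5g2 measured 70.7 and 104 FPKM in Ctrl and 80.0 and 114 FPKM in Cas9M3. The share of Atp5g2 in the sum was 43.0 and 44.3% in Ctrl and 55.7 and 56.4% in Cas9M3. In growth medium its shares were 48.0 and 51.7% in Ctrl and 51.3 and 52.8% in Cas9M3, where the ranges overlapped. The Atp5g3 share on D3 was 49.8 and 47.8% in Ctrl and 38.6 and 38.4% in Cas9M3. These shares were not tested.

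Ndufaf1 was the member furthest above 0 on D3. It measured 14.2 and 16.6 FPKM in Ctrl D3 and 25.6 and 24.3 FPKM in Cas9M3 D3, a log2 change of 0.70 ± 0.18 (SE, limma adjusted p = 0.117). It was above in both replicate pairs. Its limma adjusted p was 0.073 with the replicate number as a block and 0.0217 in the fit of these 2 groups alone. That fit called 11.4% of 13079 genes higher, against 1.29% of 13824 genes in the fit of all 4 groups. Ndufa1, a small accessory subunit encoded on the X chromosome, was the highest subunit, at 50.3 and 88.8 FPKM in Ctrl and 76.0 and 107 FPKM in Cas9M3, a change of 0.43 ± 0.57 (adjusted p = 0.797). Ndufaf4 measured 7.14 and 7.85 FPKM in Ctrl D3 and 6.70 and 6.19 FPKM in Cas9M3 D3. The Ndufaf4 levels thus lay above Ctrl in growth medium and below it on D3, and the test of the difference between the 2 effects passed for no gene. Over all subunits that difference had a median of 0.29, which turned to -0.32 without Ctrl GM replicate 2 and was 0.01 to 0.91 without each of the other libraries.

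**Figure D5:**
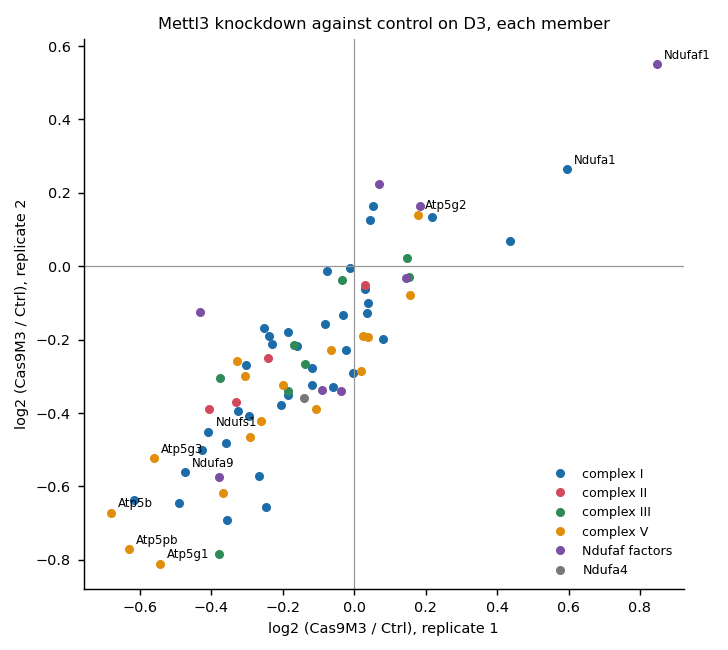
Log2 ratio of Cas9M3 to Ctrl FPKM on day 3 of differentiation in replicate 1 (x axis) and replicate 2 (y axis) for each of 75 members, coloured by complex. Most points, 49 of 66 subunits among them, lie below 0 in both replicates, and Ndufaf1 lies furthest to the upper right.

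Levels of muscle and proliferation markers also differed in this comparison. The summed level of the 8 fiber genes was 428 to 473 FPKM in Ctrl D3 and 10.3 to 13.6 FPKM in Cas9M3 D3, with 1 of 6 tested called lower. Myog measured 89.1 and 83.3 FPKM in Ctrl D3 and 3.504 and 2.28 FPKM in Cas9M3 D3. Of the proliferation markers, Mki67 measured 18.04 and 11.9 FPKM in Ctrl D3 and 6.90 and 5.33 FPKM in Cas9M3 D3, and Top2a measured 21.9 and 17.9 FPKM in Ctrl D3 and 5.64 and 5.30 FPKM in Cas9M3 D3, with a median log2 change of -1.55 and 0 called. Cyc1 measured 56.4 and 68.4 FPKM in Ctrl D3 and 31.2 and 35.6 FPKM in Cas9M3 D3. Cycs measured 25.9 and 30.8 FPKM in Ctrl D3 and 12.1 and 11.1 FPKM in Cas9M3 D3, and neither gene passed the test. The 10 mitochondrially encoded subunits had a median log2 change of -0.15 with 0 called. The part of differentiation and proliferation in the subunit values was not tested.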

How the data were processed

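RNA-seq was measured in 10 libraries of tibialis anterior and 8 of C2C12 cells, and 8 libraries of Mettl3 overexpression and GFP cells were not analysed here. Per the methods, HISAT2 placed the reads on GRCm38, featureCounts summed them over Ensembl genes, and the fpkm function of DESeq2 gave the FPKM values the authors deposited. Versions, strand setting and multi-mapping rule are not given in the sources used here, so copies such as pseudogenes may share reads. At a tolerance of 0.05 reads, 96.97 to 98.9% of low values were whole reads, which gave the depths.

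Each table was fitted on its own with limma 3.58.1 (R 4.3.3; lmFit, then eBayes with trend) on log2(FPKM + 0.1), which understates changes of low genes. All groups of a table shared one fit, and genes entered it when 2 or more libraries reached 0.5 FPKM (16753 and 13824 genes). Tests were two-sided, with Benjamini-Hochberg adjustment over all genes and a threshold of 0.05. Values beside a fold change are standard errors. Lists are described by counts and medians, without a set test. The fit was tested on simulated data.

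Lengths, positions and overlaps came from GENCODE M21, and Atp5md, Atp5mpl and Ndufb1-ps carry other names or types in the muscle table. Named genes were core subunits of complex I, all of complex II, Uqcrc1, Uqcrc2, Uqcrfs1, the F1 and c subunit genes, all Ndufaf genes, Ndufa4 and Ndufa4l2, the subunits with the largest rise and fall in each comparison, and members that failed the filter, and 1 member is not reported here by name. Members and lists were chosen with earlier results of these data known. Alternatives were 2 other pseudocounts, 2 filters, 2 scalings, a replicate block, a term for Xist, fits of the compared groups, a log2 fold threshold of 1, each library left out and, added after seeing the data, removal of each library's length trend alone or with others.

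Correlations of deviations between libraries of the same number were 0.278 to 0.680 in C2C12 groups, over 0.1 in every pair, so the numbers pair these libraries; in muscle they were -0.02 to 0.21 and do not.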

Additional observations from a re-analysis of the deposited data

How the results depend on the processing

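The 63 calls on day 3 against day 0 stayed at 62 to 63 and the 63 on day 10 against day 3 at 61 to 63 when libraries were left out one at a time, and 0 subunits were called on day 10 against day 0 in each of those fits. For day 1 against day 0 the count of 27 was 8 with no filter on low values, 6 under quantile normalization, 0 with a term for Xist, 0 in a fit of the compared groups, 0 at a log2 fold change of at least 1, and 0 to 22 without single libraries. For day 5 against day 0 the count of 44 was 11, 0, 26 and 4 under quantile normalization, the Xist term, the compared groups and the fold threshold, and 0 to 45 without single libraries. For day 3 against day 1 (61) it was 30 with the Xist term, 30 with the fold threshold and 32 to 61 without single libraries, and for day 5 against day 3 (60) it was 0, 33 and 0 to 61. The cause was not tested. In muscle the replicate numbers do not pair the libraries, and a replicate block gave 22, 63, 43 and 0 calls on days 1, 3, 5 and 10 against day 0.

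In C2C12 cells, where the numbers do pair libraries, a replicate block alone left 0 subunits called in every comparison. For Cas9M3 D3 against Ctrl D3 the compared groups alone called 4 lower, against 10.2% of 13079 genes. Some calls also appeared with Ctrl GM replicate 2 left out, together with a block or with the length trend removed. Those fits left a single library in Ctrl GM. Without single libraries, Ctrl D3 against Ctrl GM gave 0 to 36 and the other 4 comparisons 0. Scaling by median ratios moved the median of all genes by 0.13 on day 3 against day 0, and quantile normalization by -0.12, with subunit medians of -1.55 and -1.19. No called value changed sign. Without Ctrl GM replicate 2 the uncalled subunit medians of Ctrl D3 against Ctrl GM, Cas9M3 GM against Ctrl GM and the difference between the Cas9M3 effects turned from -0.56, -0.53 and 0.29 to 0.11, 0.10 and -0.32. Without Ctrl D3 replicate 2 that of Cas9M3 D3 against Ctrl D3 turned from -0.22 to 0.01. These fits do not pair the replicate numbers. With the replicate block and Ctrl GM replicate 2 left out, these medians were, in order, -0.09, -0.07, -0.16 and -0.22.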
